A study of Mus musculus with 12 samples.

Results

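The genes described here encode enzymes and adaptors that switch MAP kinase signalling off again: the dual-specificity phosphatases Dusp1, Dusp4, Dusp5, Dusp6, Dusp8, Dusp10 and Dusp14, the Sprouty proteins Spry2 and Spry4, and the Sprouty-related protein Spred1. The members were taken by gene symbol from the annotation of the mouse bead array, and the brightest probe stood for a gene with several. Of the 10 listed genes, 9 had a probe in the annotation used here, and Dusp5 was not analysed here. These genes had 14 probes, of which 12 were called present, that is above background, on each array of 1 or more groups. Thus 8 genes, 6 of them Dusp genes, were tested among 10031 features, and Spry2 was above background on 0 of the 12 arrays.

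The arrays measured total RNA of mouse embryonic fibroblasts (MEFs) of 3 genotypes on the C57BL/6 background, all immortalized by serial passage in the study. WT cells carry every NFκB gene, Rela-/-Nfkb2-/- cells lack the transcription factor RelA and the precursor protein p100, and Rela-/-Relb-/-Rel-/- cells lack RelA, RelB and cRel. Each genotype was left untreated or was treated for 6 h with 10 ng/ml of tumor necrosis factor (TNF), a cytokine that activates NFκB and MAP kinases, which gave 6 groups with 2 arrays in each. With only 2 arrays a group, the spread of each gene was estimated over all 6 groups together, so that its SE was the same in each. The sources do not say whether these came from separate cultures, so p-values measure the spread between arrays, which may be technical. Nor do they say whether a genotype is more than 1 line, so that a difference between genotypes cannot be told apart from a difference between lines.

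MAP kinase pathways relay signals through a cascade that ends in ERK, JNK or p38, and each of these kinases is active only while it is phosphorylated on a threonine and a tyrosine. Dual-specificity phosphatases remove both phosphates. Several of their genes are transcribed in response to the very kinases they inactivate, which makes them feedback inhibitors, and Sprouty and Spred proteins act further upstream by restraining the activation of Ras and Raf. In fibroblasts, TNF is known to activate JNK and p38 strongly, and the transcripts of this family are widely used as readouts of recent MAP kinase activity.

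The sequences just upstream of the transcription start are shown for 4 members. A rise with TNF passed the test for Dusp1 in Rela-/-Relb-/-Rel-/- MEFs only and for Dusp6 and Dusp10 in both mutants. Dusp8 passed in no genotype, although its responses were positive in every genotype. No test compared these genes with each other. The RefSeq promoter table held 6 of the 8 tested genes, without Dusp4 and Spry4. Each run is the 250 bases before the annotated start (RefSeq, build GRCm38.p6), read 5′ to 3′ on the strand of the gene, and capitals mark matches to the cyclic AMP response element (CRE, TGACGTCA) or to its shorter core (TGACG).
Dusp1, chr17:26508473-26508722, minus strand: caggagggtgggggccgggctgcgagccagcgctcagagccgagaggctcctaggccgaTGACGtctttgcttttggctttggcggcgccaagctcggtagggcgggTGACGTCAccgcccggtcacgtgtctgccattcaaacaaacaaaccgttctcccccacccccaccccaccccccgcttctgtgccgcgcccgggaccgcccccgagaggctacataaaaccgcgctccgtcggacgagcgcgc
Dusp6, chr10:99262981-99263230, plus strand: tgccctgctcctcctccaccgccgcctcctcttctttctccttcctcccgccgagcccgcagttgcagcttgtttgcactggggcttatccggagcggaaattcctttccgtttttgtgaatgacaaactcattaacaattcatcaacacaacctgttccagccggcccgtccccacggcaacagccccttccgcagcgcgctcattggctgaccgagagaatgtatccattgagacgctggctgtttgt
Dusp8, chr7:142095285-142095534, minus strand: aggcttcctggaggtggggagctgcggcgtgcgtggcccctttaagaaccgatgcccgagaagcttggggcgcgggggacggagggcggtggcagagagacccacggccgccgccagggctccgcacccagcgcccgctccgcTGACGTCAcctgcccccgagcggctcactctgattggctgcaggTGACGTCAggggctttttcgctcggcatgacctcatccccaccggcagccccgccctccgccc
Dusp10, chr1:184034131-184034380, plus strand: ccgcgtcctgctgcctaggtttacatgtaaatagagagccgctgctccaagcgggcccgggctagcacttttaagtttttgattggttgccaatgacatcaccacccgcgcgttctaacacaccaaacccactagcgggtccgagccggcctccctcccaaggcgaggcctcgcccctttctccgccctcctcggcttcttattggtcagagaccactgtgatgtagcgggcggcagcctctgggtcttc

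Both strands were searched for the CRE, its core, the AP-1 site TGANTCA, the ETS site CCGGAAGT, and the κB site and the CArG box, the last of which binds serum response factor. The core lies within every full CRE, and a full CRE holds it on both strands. Dusp1 held 1 full CRE, which starts at position -143 from the transcription start, and a separate core at -191. Dusp8 held 2 full CREs, at -107 and -63. A full CRE was present in 1.55% and the core in 17.8% of the 32851 promoter windows of that length. The windows of Dusp6, Dusp10, Dusp14 and Spred1 held no match to any of these motifs, and none of the 6 windows held an AP-1, κB, CArG or ETS match, which occurred in 6.75%, 7.25%, 1.47% and 2.88% of all windows. These are matches of letters only.

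Across the arrays, the median signal ran from 94.87 to 141.5, and 11637 to 12599 of the 25697 probes were above background. The spread between the 2 arrays of a group was smaller in WT MEFs (SD of 0.191 and 0.214 on the log2 scale) than in the mutant groups (0.322 to 0.472). Rela was above background on all 12 arrays, those of the mutants included, and its signals were 12.60 to 13.22 in WT MEFs, 10.28 to 10.80 in Rela-/-Nfkb2-/- MEFs and 10.05 to 10.75 in Rela-/-Relb-/-Rel-/- MEFs, on the log2 scale. Of the 4 Rela-/-Relb-/-Rel-/- arrays, Relb was above background on 1, whereas Rel was above background on none of the 12 arrays and Nfkb2 on all of them, so the Rel and Nfkb2 probes do not check the genotype labels, and that of Rela shows a lower signal only. Of 10 fibroblast markers, 8 were above background on all arrays, but Thy1 was above background only on the 4 Rela-/-Nfkb2-/- arrays. Pdgfrb was above background on 9 of the 12 arrays, and of the 4 Rela-/-Relb-/-Rel-/- arrays only on 1. By the test used below, 4 of these 10 markers were lower and 1 higher in untreated Rela-/-Relb-/-Rel-/- than in untreated WT MEFs, where 37.7% of all features differed. In untreated Rela-/-Nfkb2-/- MEFs 5 were higher and 0 lower, where 20.5% differed. The leukocyte markers Ptprc, Itgam and Adgre1 and the endothelial markers Pecam1 and Cdh5 were above background on no array. The leukocyte marker Lyz2 was above background on 1 array. Of the other endothelial markers, Kdr was above background on all 12 arrays (5.96 to 6.84) and Tek on 10 (5.53 to 7.58). The epithelial keratin gene Krt8 was above background only on the 4 Rela-/-Relb-/-Rel-/- arrays. Of the other epithelial markers, Krt18 was above background on 0 of the 12 arrays. Cdh1 was above background on all 12, at 6.24 to 6.74. The summed epithelial markers lay between 11.01 and 11.65 on the Rela-/-Relb-/-Rel-/- arrays against 7.19 to 7.42 on the other arrays, a gap due to Krt8 alone. The part of this in the genotype differences below was not tested.

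In mutant MEFs, 6 h of TNF raised a set of MAP kinase phosphatase transcripts that did not pass the test in WT MEFs. No other time was measured, so a rise that ended before 6 h could not be seen in any genotype. Dusp4, Dusp6 and Dusp10 rose in both mutant genotypes, Dusp14 rose in Rela-/-Nfkb2-/- MEFs and Dusp1 rose in Rela-/-Relb-/-Rel-/- MEFs. No fall of a member with TNF passed the test in any genotype, although 5 of 8 responses in WT MEFs had a negative sign. In WT MEFs, 0 of 8 members passed limma's moderated test at an adjusted p of 0.05, where 1.20% of all features passed. There 1 member, Dusp8, had an unadjusted p under 0.05. The paper's methods name Student's t-test for comparisons between groups, without naming the arrays. Array genes were selected in the paper by fold change, detection p-value and signal-to-noise ratio. Of the members, that selection lists Dusp8 among the genes induced in WT MEFs, in a cluster the paper describes as NFκB-dependent. Applied to the WT arrays here, the methods' t-test called 0 members after adjustment and gave 3 unadjusted p-values under 0.05. In Rela-/-Nfkb2-/- MEFs, 4 of 8 members rose, where 19.7% of all features passed in either direction and 8.03% rose. In Rela-/-Relb-/-Rel-/- MEFs, 4 of 8 members rose, where 2.18% of all features passed and 1.39% rose. The median TNF response of the 8 members was -0.14 in WT MEFs, 0.73 in Rela-/-Nfkb2-/- MEFs and 1.28 in Rela-/-Relb-/-Rel-/- MEFs on the log2 scale, against -0.04, 0.00 and -0.01 over all features.

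Scaling the arrays by their medians in place of quantiles moved the median response of all features by -0.19 in WT MEFs, by -0.28 in Rela-/-Nfkb2-/- MEFs and by 0.03 in Rela-/-Relb-/-Rel-/- MEFs. In Rela-/-Nfkb2-/- MEFs the split of all passing features was 805 higher and 1168 lower by quantiles, and 207 higher and 1319 lower by medians. Of the members, Dusp4 and Dusp10 alone then passed in Rela-/-Nfkb2-/- MEFs. When each genotype was fitted from its own 4 arrays, the spread of the other genotypes was not used. Then 1 member passed in WT MEFs (Dusp8), 1 in Rela-/-Nfkb2-/- MEFs (Dusp4) and 0 in Rela-/-Relb-/-Rel-/- MEFs. In the last of these, 5 members had unadjusted p-values under 0.05. Of all features, 352, 335 and 0 passed in the same order. The contrast in member counts between WT and mutant MEFs thus depended on the shared spread. The methods' t-test called 0 in either mutant, with 3 unadjusted p-values under 0.05 in each. Because the arrays give one signal per RNA sample, fewer cells of a type and less RNA per cell cannot be told apart.

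**Figure D1:**
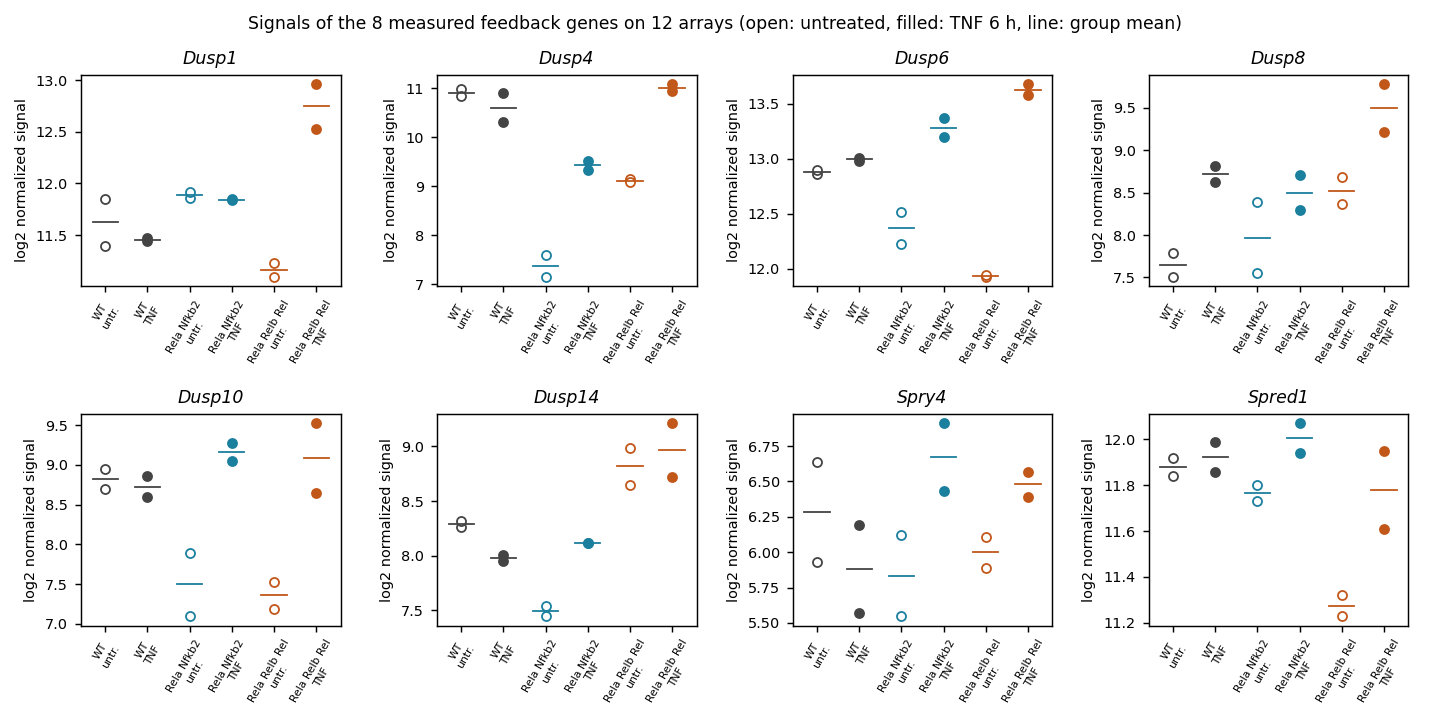
Log2 normalized signal of the 8 tested genes on each of the 12 arrays, by genotype and treatment (untr., untreated). Open circles are untreated arrays, filled circles are arrays of cells given TNF for 6 h, and lines are group means. The untreated mutant arrays of Dusp4, Dusp6 and Dusp10 lie below all WT arrays, and the TNF arrays of both mutants lie above their own untreated arrays.

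Dusp1 encodes a nuclear phosphatase of p38, JNK and ERK and is an immediate early gene, transcribed within minutes of many stimuli. Its log2 signals were 11.85 and 11.40 in untreated WT MEFs and 11.44 and 11.47 after TNF. They were 11.86 and 11.92 in untreated Rela-/-Nfkb2-/- MEFs and 11.84 and 11.85 after TNF. In Rela-/-Relb-/-Rel-/- MEFs they were 11.10 and 11.23 before and 12.53 and 12.96 after TNF. Both TNF arrays of the Rela-/-Relb-/-Rel-/- MEFs lay above every other array, and both untreated arrays of these cells lay below every other array. In Rela-/-Relb-/-Rel-/- MEFs the rise was 1.58 ± 0.19 on the log2 scale (SE, 2 arrays a group, limma adjusted p = 0.00473). The responses were -0.18 ± 0.19 in WT MEFs (95% confidence interval (CI) -0.62 to 0.26) and -0.05 ± 0.19 in Rela-/-Nfkb2-/- MEFs (95% CI -0.49 to 0.40), and neither passed. Without untreated Rela-/-Relb-/-Rel-/- replicate 1, the rise was 1.52 and missed the threshold (adjusted p = 0.0576).

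Dusp4 encodes a nuclear, inducible phosphatase of ERK and JNK, and its signal varied more between groups than that of any other member, with group means from 7.38 to 11.01. In untreated WT MEFs its log2 signals were 10.98 and 10.84, and after TNF they were 10.30 and 10.90. In Rela-/-Nfkb2-/- MEFs they were 7.60 and 7.16 before and 9.51 and 9.34 after TNF, and in Rela-/-Relb-/-Rel-/- MEFs 9.15 and 9.08 before and 10.94 and 11.08 after TNF. In both mutants the treated and untreated arrays did not overlap. After TNF the Rela-/-Relb-/-Rel-/- arrays lay near the untreated WT arrays, while those of Rela-/-Nfkb2-/- MEFs stayed below all WT arrays. The rise was 4.12-fold in Rela-/-Nfkb2-/- MEFs (log2 2.04 ± 0.22, adjusted p = 0.00052) and 3.71-fold in Rela-/-Relb-/-Rel-/- MEFs (log2 1.89 ± 0.22, adjusted p = 0.00449). In WT MEFs the response was -0.31 ± 0.22 (95% CI -0.82 to 0.20). In Rela-/-Relb-/-Rel-/- MEFs, leaving out untreated replicate 2 gave 1.85 with an adjusted p of 0.0506.

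Dusp6 encodes a cytoplasmic phosphatase that acts mainly on ERK, and it was the brightest member, at 12.85 on the log2 scale over all arrays; brightness of different probes does not order the genes. Its log2 signals were 12.86 and 12.90 in untreated and 12.98 and 13.01 in treated WT MEFs. They were 12.52 and 12.23 in untreated and 13.37 and 13.20 in treated Rela-/-Nfkb2-/- MEFs, and 11.93 and 11.94 in untreated and 13.58 and 13.68 in treated Rela-/-Relb-/-Rel-/- MEFs. The WT arrays thus lay between the untreated and the treated arrays of both mutants. The rise was 3.25-fold in Rela-/-Relb-/-Rel-/- MEFs (log2 1.70 ± 0.15, adjusted p = 0.00122) and 1.88-fold in Rela-/-Nfkb2-/- MEFs (log2 0.91 ± 0.15, adjusted p = 0.00361), and the WT response was 0.11 ± 0.15 (95% CI -0.22 to 0.45). With median scaling the response in Rela-/-Nfkb2-/- MEFs was 0.65 with an adjusted p of 0.187.

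Dusp8 and Dusp10 encode phosphatases that prefer JNK and p38 to ERK. Dusp10 had log2 signals of 8.95 and 8.69 in untreated and 8.59 and 8.86 in treated WT MEFs, of 7.10 and 7.89 in untreated and 9.27 and 9.05 in treated Rela-/-Nfkb2-/- MEFs, and of 7.53 and 7.19 in untreated and 8.64 and 9.52 in treated Rela-/-Relb-/-Rel-/- MEFs. All 4 untreated mutant arrays lay below, and the treated mutant arrays within or above, the WT range. Dusp10 rose 3.17-fold in Rela-/-Nfkb2-/- MEFs (log2 1.66 ± 0.33, adjusted p = 0.00922) and 3.29-fold in Rela-/-Relb-/-Rel-/- MEFs (log2 1.72 ± 0.33, adjusted p = 0.0371). The WT response was -0.10 ± 0.33 (95% CI -0.85 to 0.66). In Rela-/-Nfkb2-/- MEFs the call was lost without untreated replicate 1 or TNF replicate 1 (1.27 to 1.55, adjusted p = 0.0508 to 0.0638). In Rela-/-Relb-/-Rel-/- MEFs it was lost without any 1 of 9 arrays, that is all but the untreated Rela-/-Nfkb2-/- arrays and TNF replicate 1 of the Rela-/-Relb-/-Rel-/- MEFs (1.28 to 1.88, adjusted p = 0.0648 to 0.221), and also without a filter on dim probes (adjusted p = 0.0622).

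Dusp8 had the largest TNF response of the 8 members in WT MEFs. Its log2 signals were 7.79 and 7.51 in untreated and 8.82 and 8.62 in treated WT MEFs, 8.39 and 7.55 in untreated and 8.71 and 8.29 in treated Rela-/-Nfkb2-/- MEFs, and 8.68 and 8.37 in untreated and 9.78 and 9.21 in treated Rela-/-Relb-/-Rel-/- MEFs. The treated arrays lay above the untreated ones in WT and Rela-/-Relb-/-Rel-/- MEFs and overlapped them in Rela-/-Nfkb2-/- MEFs. The responses were 1.06 ± 0.31 (adjusted p = 0.215), 0.53 ± 0.31 (adjusted p = 0.266) and 0.97 ± 0.31 (adjusted p = 0.158) in the same order of genotypes, and none passed. When the 4 WT arrays were fitted on their own, the WT value passed (adjusted p = 0.0219).

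Dusp14 encodes a small atypical phosphatase without the kinase-binding domain of the classical members. Its log2 signals were 8.26 and 8.32 in untreated and 7.95 and 8.01 in treated WT MEFs, 7.54 and 7.45 in untreated and 8.12 and 8.12 in treated Rela-/-Nfkb2-/- MEFs, and 8.65 and 8.99 in untreated and 8.72 and 9.21 in treated Rela-/-Relb-/-Rel-/- MEFs. Treated arrays lay below the untreated ones in WT MEFs and above them in Rela-/-Nfkb2-/- MEFs, without overlap in either, and the Rela-/-Nfkb2-/- response alone passed (log2 0.63 ± 0.19, adjusted p = 0.0471). The responses were -0.31 ± 0.19 in WT MEFs (95% CI -0.74 to 0.12) and 0.15 ± 0.19 in Rela-/-Relb-/-Rel-/- MEFs (95% CI -0.28 to 0.57). The Rela-/-Nfkb2-/- call passed in 6 of 22 alternative settings. It was lost without any 1 of 10 arrays, all but the treated Rela-/-Relb-/-Rel-/- arrays (0.58 to 0.68, adjusted p = 0.0527 to 0.167), and with median scaling the response was 0.24 (adjusted p = 0.542).

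Spred1 and Spry4 did not pass the test for a TNF response in any genotype, and Spry2 was not tested. Spred1, which restrains Raf activation at the membrane, had log2 signals of 11.84 and 11.92 in untreated and 11.86 and 11.99 in treated WT MEFs, of 11.80 and 11.73 in untreated and 12.07 and 11.94 in treated Rela-/-Nfkb2-/- MEFs, and of 11.32 and 11.23 in untreated and 11.95 and 11.61 in treated Rela-/-Relb-/-Rel-/- MEFs. Only the untreated Rela-/-Relb-/-Rel-/- arrays stood apart, below the other 10. The Spred1 response was 0.04 ± 0.16 in WT MEFs, 0.24 ± 0.16 in Rela-/-Nfkb2-/- MEFs and 0.51 ± 0.16 in Rela-/-Relb-/-Rel-/- MEFs, the last with an adjusted p of 0.148 (95% CI 0.15 to 0.86).

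Spry4, an inhibitor of receptor tyrosine kinase signalling, lay near background and was detected on 9 of the 12 arrays, with log2 signals from 5.55 to 6.91 over all arrays. Its responses were -0.40 ± 0.32 in WT MEFs, 0.84 ± 0.32 in Rela-/-Nfkb2-/- MEFs (adjusted p = 0.0979) and 0.48 ± 0.32 in Rela-/-Relb-/-Rel-/- MEFs. The treated mutant arrays lay above the untreated ones, and the WT arrays overlapped. In each mutant only 1 of the 2 untreated arrays had Spry4 above background, so this order rests partly on background signal. With 2 arrays a group, such a separation carries little weight. Spry2 signals were 50.75 to 67.66 before normalization, with detection p-values of 0.501 to 1, so that no level of Spry2 could be compared at this signal.

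**Figure D2:**
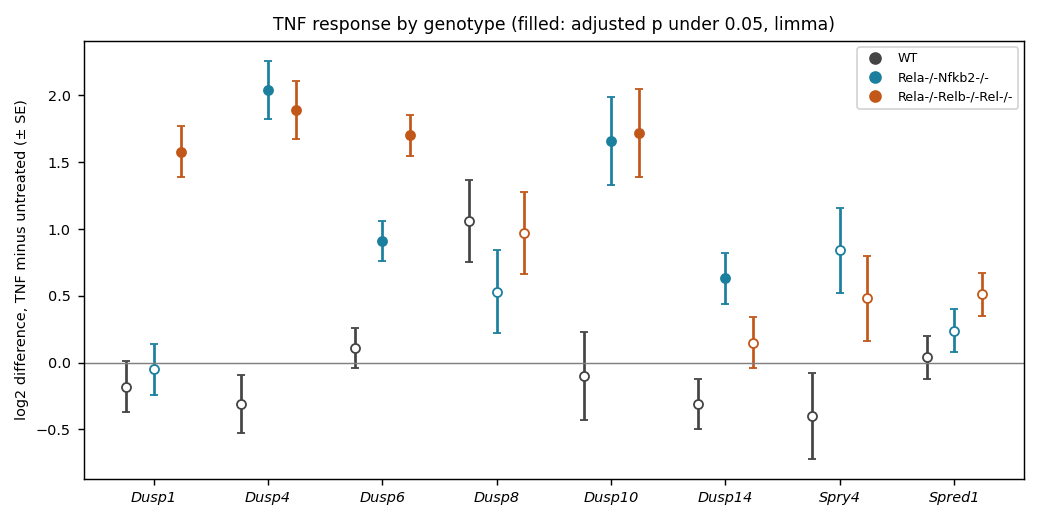
TNF response (log2 signal after TNF minus untreated, ± SE from the limma fit, 2 arrays a group) of the 8 tested genes in MEFs of the 3 genotypes. Filled symbols passed at an adjusted p of 0.05. Dusp4, Dusp6 and Dusp10 are filled in both mutants, Dusp14 in Rela-/-Nfkb2-/- MEFs and Dusp1 in Rela-/-Relb-/-Rel-/- MEFs, and no WT symbol is filled.

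The responses themselves were compared between genotypes, since a response that passes in one genotype and not in another is not thereby shown to differ. These comparisons share arrays with each other and with the responses above. Median scaling moved the median difference of all features by 0.10 for WT minus Rela-/-Nfkb2-/-, by -0.23 for WT minus Rela-/-Relb-/-Rel-/- and by -0.34 for Rela-/-Nfkb2-/- minus Rela-/-Relb-/-Rel-/-. Between WT and Rela-/-Nfkb2-/- MEFs, 1 of 8 members differed, where 4.09% of all features did. This was Dusp4, with a WT response lower by a log2 difference of -2.35 ± 0.32 (adjusted p = 0.00513). The differences were -0.80 ± 0.21 for Dusp6 (adjusted p = 0.0755), -1.76 ± 0.47 for Dusp10 (adjusted p = 0.0778) and -0.94 ± 0.27 for Dusp14 (adjusted p = 0.0947). Between WT and Rela-/-Relb-/-Rel-/- MEFs, 3 of 8 members differed, where 0.847% of all features did. These were Dusp4 at -2.20 ± 0.32 (adjusted p = 0.0171), Dusp1 at -1.76 ± 0.27 (adjusted p = 0.025) and Dusp6 at -1.59 ± 0.21 (adjusted p = 0.0123), again with the lower response in WT MEFs. Dusp10 gave -1.82 ± 0.47 (adjusted p = 0.161).

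These differences from Rela-/-Relb-/-Rel-/- MEFs rested on few arrays. Dusp4 missed the threshold without any 1 of the untreated WT or untreated Rela-/-Relb-/-Rel-/- arrays (-2.27 to -2.13, adjusted p = 0.0738 to 0.101), and Dusp6 without any WT array or any untreated Rela-/-Relb-/-Rel-/- array (-1.60 to -1.57, adjusted p = 0.0564 to 0.0759). Dusp1 missed it without any 1 of 8 arrays, all but untreated WT replicate 2, the untreated Rela-/-Nfkb2-/- arrays and TNF replicate 1 of the Rela-/-Relb-/-Rel-/- MEFs (-1.83 to -1.54, adjusted p = 0.0516 to 0.116). With median scaling Dusp1 gave -2.13 (adjusted p = 0.0565) and Dusp6 -1.85 (adjusted p = 0.142). Dusp1 also missed it with only probes above background on all arrays (adjusted p = 0.0571) and with the compared groups fitted alone (adjusted p = 0.0777), and Dusp6 with the mean of its probes (-1.92, adjusted p = 0.0558).

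Between the mutants, 1 of 8 members differed, where 4.97% of all features did. Dusp1 responded less in Rela-/-Nfkb2-/- MEFs than in Rela-/-Relb-/-Rel-/- MEFs, by -1.63 ± 0.27 on the log2 scale (adjusted p = 0.0126), and this was lost without TNF replicate 1 of the Rela-/-Nfkb2-/- MEFs or untreated replicate 1 of the Rela-/-Relb-/-Rel-/- MEFs (-1.62 to -1.56, adjusted p = 0.0508 to 0.0558). For the other 7 members no difference between the mutants passed, and the intervals were wide. The difference was 0.15 for Dusp4 (95% CI -0.57 to 0.87), -0.06 for Dusp10 (95% CI -1.12 to 1.01) and -0.79 for Dusp6 (95% CI -1.27 to -0.31, adjusted p = 0.0716). The Dusp8 response differed between WT and Rela-/-Relb-/-Rel-/- MEFs by 0.10 (95% CI -0.89 to 1.08).

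In untreated cells, several of these transcripts were lower in the mutants than in WT MEFs. The untreated mutant arrays enter both these comparisons and the TNF responses, so they are not independent of each other. Of 8 members, 4 were lower in untreated Rela-/-Nfkb2-/- than in untreated WT MEFs, where 20.5% of all features differed and 10.6% were lower, and none was higher. Dusp4 was 11.5-fold lower (log2 -3.53 ± 0.22, adjusted p = 6.76e-06), Dusp10 2.51-fold lower (log2 -1.33 ± 0.33, adjusted p = 0.021), Dusp14 1.74-fold lower (log2 -0.80 ± 0.19, adjusted p = 0.016) and Dusp6 1.42-fold lower (log2 -0.51 ± 0.15, adjusted p = 0.0425). Dusp4 thus had its lowest signals of the experiment in untreated Rela-/-Nfkb2-/- MEFs, on both arrays. The Dusp10 call was lost without any 1 of the untreated WT arrays or untreated Rela-/-Nfkb2-/- replicate 1 (-1.46 to -0.93, adjusted p = 0.0715 to 0.125), and the Dusp14 call without any 1 of the untreated WT arrays or untreated Rela-/-Nfkb2-/- replicate 2 (-0.83 to -0.75, adjusted p = 0.0626 to 0.0957). The Dusp6 call was lost without any 1 of 9 arrays, all but untreated Rela-/-Nfkb2-/- replicate 1 and the treated Rela-/-Relb-/-Rel-/- arrays (-0.53 to -0.36, adjusted p = 0.0606 to 0.184), and also with median scaling (-0.39, adjusted p = 0.51), the normalized values of the authors (-0.50, adjusted p = 0.0503) and the mean of its probes (-0.80, adjusted p = 0.0618). With the compared groups fitted alone, Dusp4 was the member that passed.

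In untreated Rela-/-Relb-/-Rel-/- MEFs, 4 of 8 members were lower than in untreated WT MEFs, where 37.7% of all features differed and 20.5% were lower. Dusp4 was 3.46-fold lower (log2 -1.79 ± 0.22, adjusted p = 0.000238), Dusp10 2.76-fold lower (log2 -1.46 ± 0.33, adjusted p = 0.00755), Dusp6 1.93-fold lower (log2 -0.95 ± 0.15, adjusted p = 0.00099) and Spred1 1.52-fold lower (log2 -0.60 ± 0.16, adjusted p = 0.0139). Dusp4 and Dusp6 kept this call in all 21 alternative settings. Dusp10 lost it without untreated WT replicate 1 or untreated Rela-/-Relb-/-Rel-/- replicate 2 (-1.33 to -1.30, adjusted p = 0.0557 to 0.0562), and Spred1 without any 1 of the untreated WT arrays or untreated Rela-/-Relb-/-Rel-/- replicate 2 (-0.64 to -0.56, adjusted p = 0.0529 to 0.081) and with median scaling (-0.62, adjusted p = 0.207). Dusp8 and Dusp14 had higher signals in untreated Rela-/-Relb-/-Rel-/- than in untreated WT MEFs without passing, at 0.87 ± 0.31 (adjusted p = 0.0518) and 0.52 ± 0.19 (adjusted p = 0.0561). Dusp8 passed without any 1 of the untreated Rela-/-Nfkb2-/- or treated Rela-/-Relb-/-Rel-/- arrays (0.87, adjusted p = 0.0218 to 0.0428), Dusp14 without any 1 of the treated Rela-/-Relb-/-Rel-/- arrays (0.52, adjusted p = 0.0272), and Dusp1, at -0.47, without untreated WT replicate 2 (-0.69, adjusted p = 0.0491).

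**Figure D3:**
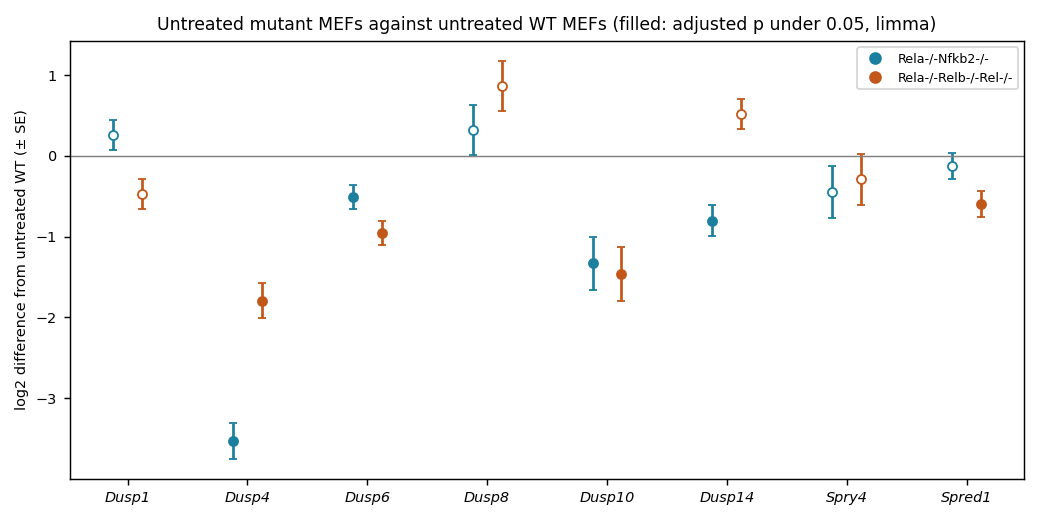
Log2 signal of untreated Rela-/-Nfkb2-/- and untreated Rela-/-Relb-/-Rel-/- MEFs minus that of untreated WT MEFs (± SE from the limma fit, 2 arrays a group) for the 8 tested genes. Filled symbols passed at an adjusted p of 0.05. Dusp4 is lowest in both mutants, and Dusp14 lies below 0 in Rela-/-Nfkb2-/- MEFs and above 0 in Rela-/-Relb-/-Rel-/- MEFs.

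The untreated mutants also differed from each other in 5 of 8 members, where 33.6% of all features did. Dusp4 was higher in Rela-/-Relb-/-Rel-/- MEFs than in Rela-/-Nfkb2-/- MEFs by 1.74 ± 0.22 on the log2 scale (adjusted p = 0.000337) and Dusp14 by 1.32 ± 0.19 (adjusted p = 0.000618). Dusp1 was lower by a log2 difference of -0.72 ± 0.19 (adjusted p = 0.0186), Spred1 by -0.49 ± 0.16 (adjusted p = 0.039) and Dusp6 by -0.44 ± 0.15 (adjusted p = 0.0488). With so many features differing between these cells, the count is not a trait of the members. The Dusp4 and Dusp14 differences each passed in 20 of 21 alternative settings. The Dusp1 call was lost without any 1 of the 4 untreated mutant arrays (-0.79 to -0.66, adjusted p = 0.0531 to 0.0997), the Spred1 call without any 1 of 10 arrays, all but the treated Rela-/-Relb-/-Rel-/- arrays (-0.53 to -0.45, adjusted p = 0.0565 to 0.164), and the Dusp6 call without any array except untreated Rela-/-Nfkb2-/- replicate 2 (-0.45 to -0.29, adjusted p = 0.0542 to 0.236). Spred1 and Dusp6 also lost it with median scaling (adjusted p = 0.241 and 0.248), Dusp6 with the mean of its probes (-0.20, adjusted p = 0.623), and Dusp1, Dusp6 and Spred1 with the compared groups fitted alone (adjusted p = 0.0702, 0.239 and 0.167).

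Dusp4, Dusp6 and Dusp10 each had more than 1 probe past the background filter, which gave a second reading from the same RNA. The 2 Dusp4 probes correlated at r = 0.99 over the 12 arrays, and so did the 2 Dusp10 probes; the arrays share genotypes and scaling, and the values are descriptive. The second Dusp4 probe gave TNF responses of -0.47, 1.58 and 1.99 in WT MEFs, Rela-/-Nfkb2-/- MEFs and Rela-/-Relb-/-Rel-/- MEFs, and the second Dusp10 probe gave -0.06, 1.88 and 1.63. Directions were the same as with the brightest probe of each gene.

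The 3 Dusp6 probes were less alike. The dimmest kept probe followed the brightest one (r = 0.94), with responses of 0.28, 1.61 and 2.50. The probe of middle brightness correlated with the brightest one at r = 0.53. On that probe, replicate 2 exceeded replicate 1 by 2.68, 1.36, 1.99 and 2.49 on the log2 scale in the 4 mutant groups, while the WT pairs differed by -0.08 and -0.26. Its mean responses were -0.21 in WT MEFs, 1.90 in Rela-/-Nfkb2-/- MEFs and 1.76 in Rela-/-Relb-/-Rel-/- MEFs. The gaps between replicates of this probe were thus of the size of its responses. On the brightest probe the same gaps ran from -0.30 to 0.10, and on the dimmest from -0.97 to -0.42.

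**Figure D4:**
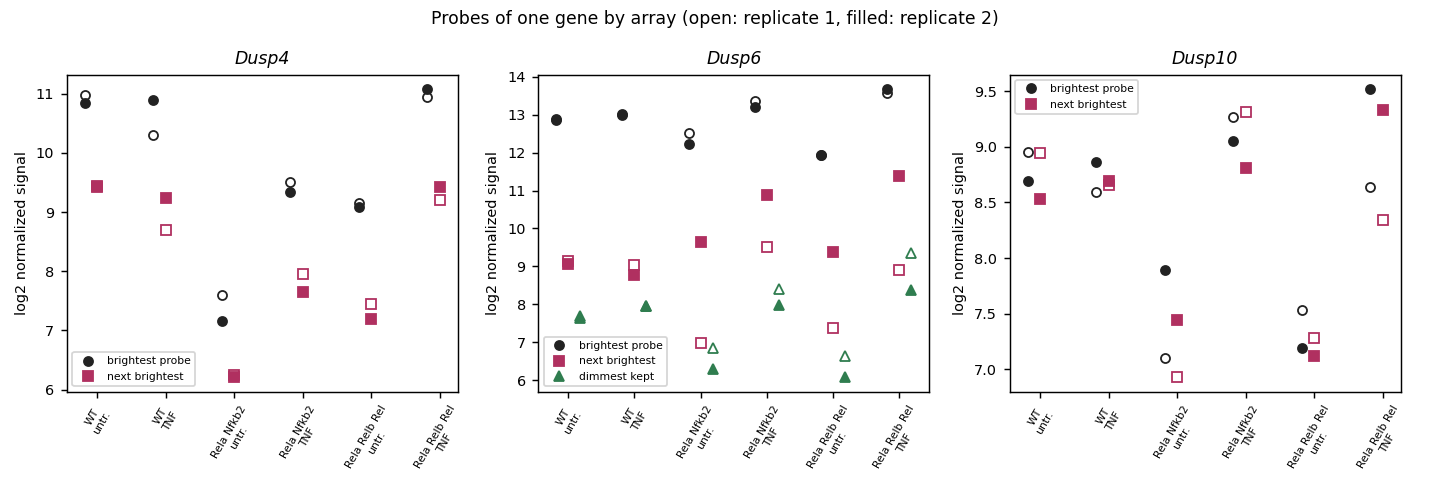
Log2 normalized signal of each probe past the background filter for Dusp4, Dusp6 and Dusp10, by array (untr., untreated). Open symbols are replicate 1 and filled symbols replicate 2; shapes separate the brightest, the next brightest and the dimmest kept probe. The next brightest Dusp6 probe shows gaps of 1.36 to 2.68 between the replicates of every mutant group.

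The transcripts that ERK signalling is known to raise, taken as a list of 10 genes, moved in the mutants as well. This list, like the members, was chosen with earlier results of these data known, so its counts are not independent support. All 10 were tested. Ier2 was above background on no WT array and on no untreated Rela-/-Nfkb2-/- array, and Fos on 1 untreated and no treated WT array. A change of these 2 genes could hardly pass there. The medians given for WT and Rela-/-Nfkb2-/- MEFs include such fitted values without a bound. In WT MEFs limma called 0 of them, with 2 unadjusted p-values under 0.05. In Rela-/-Nfkb2-/- MEFs 6 rose and 1 fell, where 19.7% of all features passed and 8.03% rose, and in Rela-/-Relb-/-Rel-/- MEFs 7 rose and none fell, where 2.18% passed and 1.39% rose. The median response was 0.31, 1.08 and 1.43 in WT MEFs, Rela-/-Nfkb2-/- MEFs and Rela-/-Relb-/-Rel-/- MEFs, against -0.04, 0.00 and -0.01 over all features. In Rela-/-Relb-/-Rel-/- MEFs the median was 1.20 with the 3 genes not above background on either untreated array, Ier2, Etv4 and Myc, set at their bounds. Fosl1, an AP-1 subunit that accumulates with sustained ERK activity, rose by 2.10 ± 0.30 in Rela-/-Nfkb2-/- MEFs (adjusted p = 0.0019) and by 3.01 ± 0.30 in Rela-/-Relb-/-Rel-/- MEFs (adjusted p = 0.00221), where it was above background on 1 of the 2 untreated arrays. Egr2, a zinc finger immediate early gene, rose by 3.03 ± 0.28 in Rela-/-Relb-/-Rel-/- MEFs (adjusted p = 0.0017). Egr2 also rose by 1.57 in Rela-/-Nfkb2-/- MEFs, where it passed in 21 of 22 alternative settings. Its treated WT arrays (9.65 and 10.34) lay above the untreated ones (8.62 and 9.31) without passing. Etv4, an ETS factor, rose by 1.91 ± 0.15 in Rela-/-Nfkb2-/- MEFs (adjusted p = 0.000104).

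Myc, a growth regulator, rose by 1.69 ± 0.19 in Rela-/-Nfkb2-/- MEFs (adjusted p = 0.000617). In untreated Rela-/-Relb-/-Rel-/- MEFs it was not above background on either array, and TNF raised it at least 2.21-fold there (adjusted p = 0.00495), with the untreated level set at the dimmest signal called above background. Fos, the classical AP-1 subunit, went opposite ways. It fell by 1.83 in Rela-/-Nfkb2-/- MEFs (SE 0.44, adjusted p = 0.019) and rose by 2.38 ± 0.44 in Rela-/-Relb-/-Rel-/- MEFs (adjusted p = 0.0312). This difference between the mutants was itself tested, at -4.21 ± 0.62 (adjusted p = 0.00681), and passed in all 20 alternative settings that could give it. By quantitative RT-PCR, the paper reports instead that TNF raised Fos mRNA similarly in WT MEFs and in both mutants. It used Fos as a control that does not depend on NFκB. The time of that comparison is not stated, and the cause of the discrepancy was not tested. Myc lost its Rela-/-Relb-/-Rel-/- call without untreated replicate 2 (1.44, adjusted p = 0.0614). Fos lost its Rela-/-Nfkb2-/- call without replicate 1 of either treatment (-1.73 to -1.36, adjusted p = 0.0788 to 0.133), and its Rela-/-Relb-/-Rel-/- call without any WT array, any untreated Rela-/-Relb-/-Rel-/- array or TNF replicate 2 of the Rela-/-Relb-/-Rel-/- MEFs (1.90 to 2.86, adjusted p = 0.0503 to 0.188).

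Between genotypes, the responses of Etv4 (-2.11 ± 0.22, adjusted p = 0.00141) and Myc (-1.37 ± 0.27, adjusted p = 0.0296) were lower in WT than in Rela-/-Nfkb2-/- MEFs. That of Fosl1 (-2.71 ± 0.43, adjusted p = 0.0261) was lower in WT than in Rela-/-Relb-/-Rel-/- MEFs. Etv4 passed there as well (adjusted p = 0.0325), but in Rela-/-Relb-/-Rel-/- MEFs it was not above background on either untreated array and on 1 of the 2 treated arrays, so that only a rise of at least 1.15-fold could be given for these cells and no size for the difference. With a background offset of 50 it did not pass (adjusted p = 0.105). The Etv4 difference from Rela-/-Nfkb2-/- MEFs passed in all 20 settings that could give it, and the Myc difference was lost without any 1 of 10 arrays, all but the treated Rela-/-Relb-/-Rel-/- arrays (-1.55 to -1.18, adjusted p = 0.0517 to 0.119). The differences from Rela-/-Relb-/-Rel-/- MEFs were each lost without any 1 of 9 arrays. For Fosl1 the exceptions were the untreated Rela-/-Nfkb2-/- arrays and TNF replicate 1 of the Rela-/-Relb-/-Rel-/- MEFs (-2.95 to -2.48, adjusted p = 0.0568 to 0.138), and for Etv4 the untreated Rela-/-Nfkb2-/- arrays and TNF replicate 2 of the Rela-/-Relb-/-Rel-/- MEFs (adjusted p = 0.067 to 0.149).

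**Figure D5:**
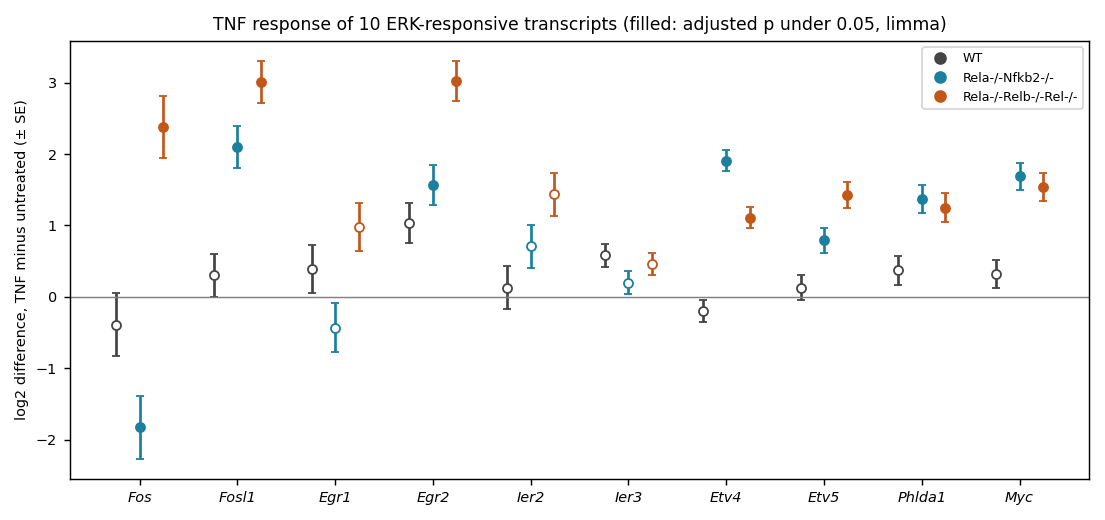
TNF response (log2 signal after TNF minus untreated, ± SE from the limma fit, 2 arrays a group) of the 10 ERK-responsive transcripts in the 3 genotypes. Filled symbols passed at an adjusted p of 0.05. Fos lies below 0 in Rela-/-Nfkb2-/- MEFs and above 0 in Rela-/-Relb-/-Rel-/- MEFs, and no WT symbol is filled. The Rela-/-Relb-/-Rel-/- points of Ier2, Etv4 and Myc are fitted values that rest on untreated arrays not above background. The WT points of Ier2 and Fos and the Rela-/-Nfkb2-/- point of Ier2 also rest wholly or in part on arrays not above background.

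The other phosphatase, Sprouty and Spred genes formed a list of 16, of which 11 were tested, and limma called 0 in WT and 0 in Rela-/-Relb-/-Rel-/- MEFs, with 3 and 4 unadjusted p-values under 0.05. In Rela-/-Nfkb2-/- MEFs 2 rose and 1 fell, and 6 had unadjusted p-values under 0.05. These 3 of 11 stand beside 19.7% of all features called there. Spred2, a relative of Spred1, rose by 1.15 ± 0.30 (adjusted p = 0.0286), and Dusp16, a JNK phosphatase, by 0.65 ± 0.14 (adjusted p = 0.0118). Spry3, a Sprouty gene, fell by 1.35 (SE 0.22, adjusted p = 0.00352), from 8.85 and 9.47 untreated to 7.70 and 7.93 after TNF, and its response was lower than in Rela-/-Relb-/-Rel-/- MEFs by a log2 difference of -1.65 ± 0.31 (adjusted p = 0.0195). The median response of the 11 genes was 0.10, 0.06 and 0.30 in WT MEFs, Rela-/-Nfkb2-/- MEFs and Rela-/-Relb-/-Rel-/- MEFs. Spred2 lost its call without untreated replicate 2 or without either treated array of the Rela-/-Nfkb2-/- MEFs (0.86 to 1.35, adjusted p = 0.0597 to 0.168), and Dusp16 without TNF replicate 1 (0.58, adjusted p = 0.0846). The Spry3 difference was lost without any 1 of the treated Rela-/-Nfkb2-/- arrays, the untreated Rela-/-Relb-/-Rel-/- arrays or TNF replicate 1 of the Rela-/-Relb-/-Rel-/- MEFs (-1.76 to -1.53, adjusted p = 0.0509 to 0.0829).

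The kinases and adaptors of the cascade itself, a list of 28 genes of which 20 were tested, stayed close to the whole array, with median responses of 0.03, 0.10 and 0.11 in WT MEFs, Rela-/-Nfkb2-/- MEFs and Rela-/-Relb-/-Rel-/- MEFs. Limma called 0 in WT and 0 in Rela-/-Relb-/-Rel-/- MEFs, with 4 and 3 unadjusted p-values under 0.05, while 2 rose and 3 fell in Rela-/-Nfkb2-/- MEFs. These 5 of 20 lie near the 19.7% of all features called there. Map2k3, a kinase that activates p38, rose by 1.15 ± 0.15 (adjusted p = 0.00128), and Mapkapk2, a kinase downstream of p38, by 0.55 ± 0.16 (adjusted p = 0.0461). The receptor gene Pdgfrb fell by 1.40 (SE 0.19, adjusted p = 0.00164), and Map3k8, a kinase that activates the ERK cascade after TNF receptor signals, fell by 0.86 (SE 0.25, adjusted p = 0.0392). The Mapkapk2 response was 0.80 ± 0.16 in WT MEFs and -0.57 ± 0.16 in Rela-/-Relb-/-Rel-/- MEFs without passing in either, and their difference was 1.37 ± 0.23 (adjusted p = 0.0344). The Map2k3 and Pdgfrb calls in Rela-/-Nfkb2-/- MEFs were kept without any 1 array. Mapkapk2 lost its Rela-/-Nfkb2-/- call without any 1 of 9 arrays (0.43 to 0.65, adjusted p = 0.0708 to 0.234), all but untreated Rela-/-Nfkb2-/- replicate 2 and the treated Rela-/-Relb-/-Rel-/- arrays, and Map3k8 without any array except the untreated WT and treated Rela-/-Relb-/-Rel-/- arrays (-0.89 to -0.83, adjusted p = 0.054 to 0.141). The Mapkapk2 difference was lost without any 1 of 9 arrays, all but the untreated Rela-/-Nfkb2-/- arrays and TNF replicate 2 of the Rela-/-Relb-/-Rel-/- MEFs (1.20 to 1.40, adjusted p = 0.0664 to 0.17).

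Differences of responses also passed in this list for Pdgfrb and Map2k3 between WT and Rela-/-Nfkb2-/- MEFs, at 1.45 ± 0.27 (adjusted p = 0.0242) and -1.14 ± 0.22 (adjusted p = 0.024), and for Mapkapk2 between the mutants, at 1.12 ± 0.23 (adjusted p = 0.0296). Map2k6 between WT and Rela-/-Nfkb2-/- MEFs (adjusted p = 0.0366) and Pdgfrb between the mutants (adjusted p = 0.034) passed too, but no size is given for these. Map2k6, another kinase that activates p38, was above background on neither treated Rela-/-Nfkb2-/- array, and of the Rela-/-Relb-/-Rel-/- arrays neither treated one and 1 of the 2 untreated ones had Pdgfrb above background. Each of these 5 differences was lost without any 1 of 6 to 10 arrays, the arrays of WT MEFs other than TNF replicate 1 and both treated Rela-/-Nfkb2-/- arrays among them in every case, with adjusted p-values between 0.057 and 0.134 when lost.

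Over the 12 arrays, Dusp6 and Dusp10 were the most alike pair of members (r = 0.86), followed by Dusp1 and Dusp6 (r = 0.72), and Dusp4 and Dusp10 and likewise Dusp6 and Spred1 followed at r = 0.70, whereas Dusp14 and Spred1 ran opposite (r = -0.49). These values describe 12 arrays that share 3 genotypes and 1 scaling. Among 9250 other named features, the signal most like Dusp4 was that of Cdkn1a, a cell cycle inhibitor (r = 0.952), and then Mdm2 (r = 0.929). The closest to Dusp6 were Rin1 (r = 0.959) and Sat1 (r = 0.913), to Dusp10 Cyb5b (r = 0.910) and Hbegf, an EGF receptor ligand (r = 0.907), and to Dusp1 Plpp7 (r = 0.905) and Gzmm (r = 0.882). Dusp8 was closest to Slc35c1 (r = 0.924) and Cycs (r = 0.923), Dusp14 to Tssc4 (r = 0.954) and Tm4sf1 (r = 0.945), and Spred1 to Lmna (r = 0.968) and Srsf10 (r = 0.955). Spry4 had no closer feature than Mrgbp (r = 0.788) and Zfp35 (r = 0.785).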

How the data were processed

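Total RNA of MEFs was hybridised to Illumina MouseRef-8 v2.0 bead arrays, 12 in all. Per the labels and the file, the deposited table pairs a signal intensity with its detection p-value on every array, as exported from GenomeStudio (version not given in the sources used here). A second deposited table holds normalized intensity, which the methods describe as quantile normalized. The deposited signal intensity was corrected for background and quantile normalized with neqc (offset 16) in limma 3.58.1 under R 4.3.3, on the log2 scale; the deposited normalized intensity served as an alternative. Quantile normalization forces the same distribution on every array, so changes are relative to the whole array.

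The filter kept 13387 of 25697 probes, those whose detection p-value was below 0.05 on each array of 1 or more groups. The annotation gave 23978 probes 1 gene symbol and 1719 none. The brightest kept probe stood for each gene. One mean per group was fitted with lmFit and eBayes over all 12 arrays, with Benjamini-Hochberg adjustment over all 10031 features for each of 9 comparisons, with 0.05 as the threshold. Intervals are 95% from that fit. A gene not above background on either array of a group has only a bound there. The test was run on simulated data in which a gene had the same spread in every group and only treated WT arrays changed. That simulation does not check the mutant responses or the differences between genotypes, since the mutant arrays spread more.

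All 10 listed genes are reported. Of each related list, up to 4 genes a comparison are named, those with the largest change among genes that passed in a TNF response or in a difference of responses. Egr2 is in addition given for every genotype. The 2 most alike features of each member are those with the highest Pearson r. The members and lists were chosen with earlier results of these data known. Sequences are from RefSeq. Alternatives were another scaling, offset, filter, probe rule, fit or test, the replicate number as a block, and leaving out each array.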

Additional observations from a re-analysis of the deposited data

Results flagged for a closer look

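Differences of TNF responses between genotypes passed for Dusp4 against Rela-/-Nfkb2-/- MEFs (WT minus mutant, -2.35 on the log2 scale) and for Dusp4 (-2.20), Dusp1 (-1.76) and Dusp6 (-1.59) against Rela-/-Relb-/-Rel-/- MEFs. Each was flagged because the contrast between the genotypes was itself tested and passed in the limma fit. Between the mutants, the Dusp1 response was flagged on the same ground (Rela-/-Nfkb2-/- minus Rela-/-Relb-/-Rel-/-, -1.63). These contrasts share arrays. With 2 arrays a group, no group could be tested for an outlying array.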

How the results depend on the processing

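Here Rela-/-Nfkb2-/- and Rela-/-Relb-/-Rel-/- MEFs are called DM and TM. Over 22 alternative settings, 12 of which left out 1 array, 2330 values of named genes were recomputed. In 29 of them, belonging to 14 results, the sign changed; 0 of these passed in either fit, and the new value was at most 0.39 in size. With median scaling, the sign changed for the WT responses of Dusp6 (-0.07) and Spred1 (-0.18), DM response of Spred1 (-0.13), and the differences of Dusp1 (WT minus DM, 0.01), Dusp8 (WT minus TM, -0.16) and Dusp4 (between the mutants, -0.31; DM minus TM). With the mean of a gene's probes it changed for the differences between the mutants of Dusp4 (-0.13) and Dusp10 (0.09).

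When 1 array was left out at a time, the values that crossed 0 were the WT responses of Dusp1 (-0.40 to 0.05), Dusp10 (-0.23 to 0.04) and Spred1 (-0.02 to 0.11) and TM response of Dusp14 (-0.10 to 0.39). So were the differences WT minus DM of Dusp1 (-0.36 to 0.09), WT minus TM of Dusp8 (-0.19 to 0.38), and between the mutants of Dusp4 (-0.07 to 0.37) and Dusp10 (-0.50 to 0.39). In untreated cells such values were Dusp8 in DM against WT MEFs (-0.10 to 0.73), Spry4 in TM against WT MEFs (-0.64 to 0.07), and Spry4 (-0.12 to 0.45) and Dusp10 (-0.53 to 0.26) in TM against DM.

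The number of members called when 1 array was left out was 0 for the WT response and ranged from 2 to 4 for each mutant response, from 1 to 2 for WT minus DM, from 0 to 3 for WT minus TM and from 0 to 2 between the mutants. In untreated cells it ranged from 1 to 4 for DM against WT MEFs, from 2 to 6 for TM against WT MEFs and from 2 to 4 between the mutants.

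Median scaling called 2 members for DM response, 1 for WT minus TM and 3 between the untreated mutants. Fitting only the groups compared called 1 for the WT response, 1 for DM response, 0 for TM response (5 at an unadjusted p under 0.05), 1 for untreated DM against WT MEFs and 2 between the untreated mutants. The methods' t-test called 0 for DM and for TM response (3 unadjusted in each), 0 for untreated DM against WT MEFs (2 unadjusted), 2 for untreated TM against WT MEFs and 0 between the untreated mutants (4 unadjusted), and it was not run on differences of responses. Without a filter on dim probes, and with the trend and robust options, 2 members were called for WT minus DM and 2 between the mutants; the added one was Dusp6 in each case. The cause was not tested.

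The replicate number was also fitted as a block within each genotype. The labels do not say what a number marks, and with 2 pairs a genotype the samples share only a number. Deviations from the group means correlated between same-numbered arrays of a genotype (r = 0.31 in WT MEFs, 0.67 in DM and 0.70 in TM), but likewise between the mutants (0.62 to 0.85), and at -0.19 to 0.00 between WT and mutant groups. With the block, 1 member passed in WT MEFs (Dusp8, adjusted p = 0.0181) and 5 in each mutant, Dusp8 being added in DM (adjusted p = 0.0393) and in TM (adjusted p = 0.0186). For the differences, 3 passed for WT minus DM, with Dusp6 (adjusted p = 0.0405) and Dusp14 (adjusted p = 0.0248) added, 2 passed between the mutants, with Dusp6 added (adjusted p = 0.0398), and the 3 for WT minus TM were kept. Over all features the block called 290, 3324 and 663 responses in WT MEFs, DM and TM.

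Over all features, the count for the WT response was 120, and it was 58 with median scaling, 21 with probes above background on all arrays (the strict filter), 352 with the compared groups alone and 0 with the methods' t-test (1222 unadjusted). For DM response it was 1973 against 335 with the compared groups alone and 0 with the t-test (1731 unadjusted). For TM response it was 219 against 95 with median scaling, 105 with the strict filter, 0 with the compared groups alone (953 unadjusted) and 0 with the t-test (800 unadjusted). The differences WT minus DM numbered 410, against 207 with median scaling, 93 with the strict filter, 237 with the compared groups alone and 1037 with the block. Those of WT minus TM numbered 85, against 37, 13, 57 and 228 in the same order. Between the mutants they numbered 499, against 135 with the strict filter, 189 with the compared groups alone and 1113 with the block. In untreated cells, DM against WT MEFs gave 2055, against 1118 with the strict filter, 1155 with the compared groups alone and 1 with the t-test. For TM against WT MEFs, 3777 fell to 1392 with the t-test, and between the mutants 3367 became 2148, 1969 and 186 with these last settings. Leaving out 1 array gave 32 to 118 for the WT response, 956 to 2179 for DM and 44 to 261 for TM, 119 to 461 for WT minus DM, 32 to 98 for WT minus TM and 205 to 734 between the mutants, and in untreated cells 1208 to 2209, 2645 to 4004 and 2380 to 3584 in the order above. Median scaling turned the split of WT minus DM from 293 positive and 117 negative to 183 and 24, and that between the mutants from 133 and 366 to 41 and 318.

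With 2 arrays a group, the intervals were wide. Spry4 lay near background and Spry2 below it.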
